A study of Homo sapiens with 12 samples.

Results

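Early replicating regions (ERRs) of human chromosome 19 were examined in U2OS-MycER cells, a human osteosarcoma line with a chimera of Myc and the estrogen receptor (MycER). All deposited regions on chromosome 19 were taken, 511 of the 18185 regions in the 4 lists of the series. The list of shNT gave 109, that of shNT + OHT 121, that of shCDK12 144 and that of shCDK12 + OHT 137. Where 4 values of the lists follow each other without a name, they stand in this order. In all 4 conditions the cells carried the MycER transgene and a doxycycline-inducible hairpin, and all received 1 µg/mL doxycycline. The hairpin of shNT has no target, and that of shCDK12 silences CDK12, a kinase that phosphorylates RNA polymerase II during elongation. In the conditions marked OHT, MycER was switched on with 300 nM 4-hydroxytamoxifen (OHT) for 40 h. Every culture was arrested with 100 ng/mL nocodazole for 8 h and released for 24 h into 25 µM EdU, a thymidine analogue that labels new DNA, with 2 mM hydroxyurea, which starves replication of nucleotides and keeps the label near the origins that fire early. Each condition has 3 samples, but the deposited regions are 1 merged list per condition. There is therefore no replicate error anywhere in what follows, no comparison could be tested, and the Wilson 95% intervals of shares cover counting error only. All experiments rest on a single cell line with forced Myc activity, and neither the extent of CDK12 silencing nor the copy number of the chromosomes was analysed here.

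Chromosome 19 is known as a gene-dense chromosome of high GC content. Early replication generally follows active, gene-rich and open chromatin, while gene-poor or silenced chromatin is copied later. The same chromosome also carries large clusters of zinc finger genes, most of them encoding repressors with a KRAB domain, and the bodies of these genes are known to carry the silencing mark H3K9me3. In the RefSeq gene table (GRCh38.p14, used for names and neighbours only), 255 of 538 protein-coding genes named ZNF or ZFP (47.4%) lie on chromosome 19, where they make up 17.6% of its 1451 protein-coding genes. Of these, 205 stand in 7 runs of at least 10 such genes.

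Chromosome 19 was covered more densely than most of the genome. ERRs covered 24.9, 26.6, 24.5 and 26.0 Mb of it. As a share of the span from the start of the first region (hg19, chromosome 19, 364801) to the end of the last (59119200), leaving out the longest stretch without a region, this was 45.8%, 48.9%, 45.2% and 47.9% in order of the lists. On the other autosomes together, measured in the same way, the share was 16.6%, 18.3%, 17.0% and 20.7%. Chromosome 19 ranked 2, 2, 3 and 3 among the 22 autosomes. Chromosome 22 had the highest share in each list (54.9% to 69.0%) and chromosome 13 the lowest (4.40% to 6.32%). By number alone, regions of chromosome 19 ranked 17 or 18, but per Mb of the full span there were 1.86, 2.06, 2.45 and 2.33 regions, which ranked 4, 5, 4 and 3. The stretch left out was meant to be the one around the centromere, but on chromosome 19 it was not. With the full span the shares of chromosome 19 were 42.3%, 45.2%, 41.7% and 44.2%.

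The regions of chromosome 19 had a larger median width than the pooled regions of the other autosomes. Their median width was 123 kb in shNT against 74.4 kb on the other autosomes, 96.4 against 60.4 kb in shNT + OHT, 78.6 against 55.6 kb in shCDK12 and 86.4 against 71.2 kb in shCDK12 + OHT. By median width chromosome 19 ranked 2, 2, 3 and 4 among the 22 autosomes. Chromosome 22 had a larger median in every list (129, 127, 103 and 138 kb). Widths on chromosome 19 were spread over several orders of magnitude. Their lower quartiles were 59.6, 36.8, 36.4 and 48.4 kb and their upper quartiles 250, 234, 211 and 256 kb. The medians of the lists depended on weak regions. When only regions above a minimum score common to all lists (146, the authors' score of a region) were kept, 117 regions with a median of 111 kb remained in shCDK12, whereas shNT kept its 109 regions, shNT + OHT 110 (median 104 kb) and shCDK12 + OHT 135 (89.2 kb). The order of the lists by number and by width thus changed with this setting.

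A few regions of at least 500 kb held much of the cover. Such regions numbered 14, 18, 9 and 11. They made up 48.2%, 58.6%, 32.4% and 33.9% of the covered length of chromosome 19, against 12%, 14.6%, 11.8% and 14.7% on the other autosomes. The lists without CDK12 silencing had the larger share in wide regions. Regions of at most 2 kb were rare, at 1 to 4 per list. The widest region of shNT lay at chr19:45060001-46852400 (1792.4 kb), that of shNT + OHT at chr19:48675601-50514000 (1838.4 kb), that of shCDK12 at chr19:428401-2189200 (1760.8 kb) and that of shCDK12 + OHT at chr19:403201-2179600 (1776.4 kb).

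Gaps between regions were shorter than elsewhere. The median gap was 64.8, 59.4, 48.4 and 48.6 kb, against 123, 108, 89.6 and 86.0 kb on the other autosomes. Gaps under 20 kb made up 18.5%, 25.8%, 24.5% and 27.2% of all gaps (14.2%, 14.4%, 18.6% and 18.3% elsewhere). At the other end, between 15 and 19 gaps of at least 500 kb per list held 23.1 to 25.9 Mb.

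Reads were also denser. The authors' read count of a region, summed over the region's merged replicates, was divided by its width. Regions of chromosome 19 held 1137436 reads in shNT (45.7 per kb), 3350543 in shNT + OHT (126 per kb), 830114 in shCDK12 (33.9 per kb) and 1559471 in shCDK12 + OHT (60 per kb). These counts are not scaled to library size, so levels were compared within a list. Over the reads per kb of the other autosomes (38.7, 101, 29.0 and 51.9), chromosome 19 stood at ratios of 1.18, 1.25, 1.17 and 1.16. It was the 4th densest autosome in each list, and chromosome 22 was the densest. With 5.64%, 5.45%, 5.42% and 4.76% of the autosomal covered length it held 6.59%, 6.70%, 6.28% and 5.46% of the autosomal reads in regions.

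Among regions of at least 10 kb, the densest was chr19:2201201-2674800 in shNT (88.4 reads per kb), chr19:364801-2193200 in shNT + OHT (206 reads per kb) and chr19:18610401-18816400 in shCDK12 (55.2 reads per kb). In shCDK12 + OHT it was chr19:27731601-27769600, with 32591 reads over 38 kb (858 per kb). In the other lists the same spot held a region of 8.8 kb, at 1276, 2916 and 1577 reads per kb. Joining the overlapping regions of all lists gave chr19:27731601-27770800, covered over 8.8, 26.8, 29.6 and 38 kb in order of the lists. Only in shNT was the 8.8 kb region thus all of the cover there. The spot borders the region-free stretch that, from general knowledge of the hg19 map, holds the centromere. A region of 2.8 to 3.2 kb on the other side of that stretch, ending at 24186400 in every list, held 250, 591, 212 and 305 reads per kb. Such narrow spots stood far above the median region of chromosome 19, at 28.4, 64.5, 22.6 and 41.4 reads per kb. Leaving out regions above 500 reads per kb moved the ratio to the other autosomes to between 1.16 and 1.26.

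The cover was distributed unevenly along the chromosome. In 1 Mb bins counted from the chromosome start, 12, 13, 12 and 13 of the 60 bins were covered by at least 80%. That was 20% to 21.7% of bins, against 3.07% to 5.08% on the other autosomes. No region lay in 11, 8, 10 and 12 bins, or 13.3% to 20%, against 39.4% to 44.3% elsewhere. In all lists the bins from 1 to 5 Mb, 10 to 11 Mb, 18 to 19 Mb, 39 to 40 Mb, 45 to 48 Mb and 49 to 51 Mb passed 80%. The bin from 1 to 2 Mb was covered completely in all 4 lists. Cover was low from 20 to 33 Mb, where only the bin from 30 to 31 Mb passed 20% in any list, at 19.9%, 32.8%, 24.9% and 51.7%. On the short-arm side of the stretch that holds the centromere, ERRs covered 51.0%, 54.1%, 49.4% and 50.6% of the span, and on the other side 40.5%, 43.5%, 40.6% and 44.4%.

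**Figure D1:**
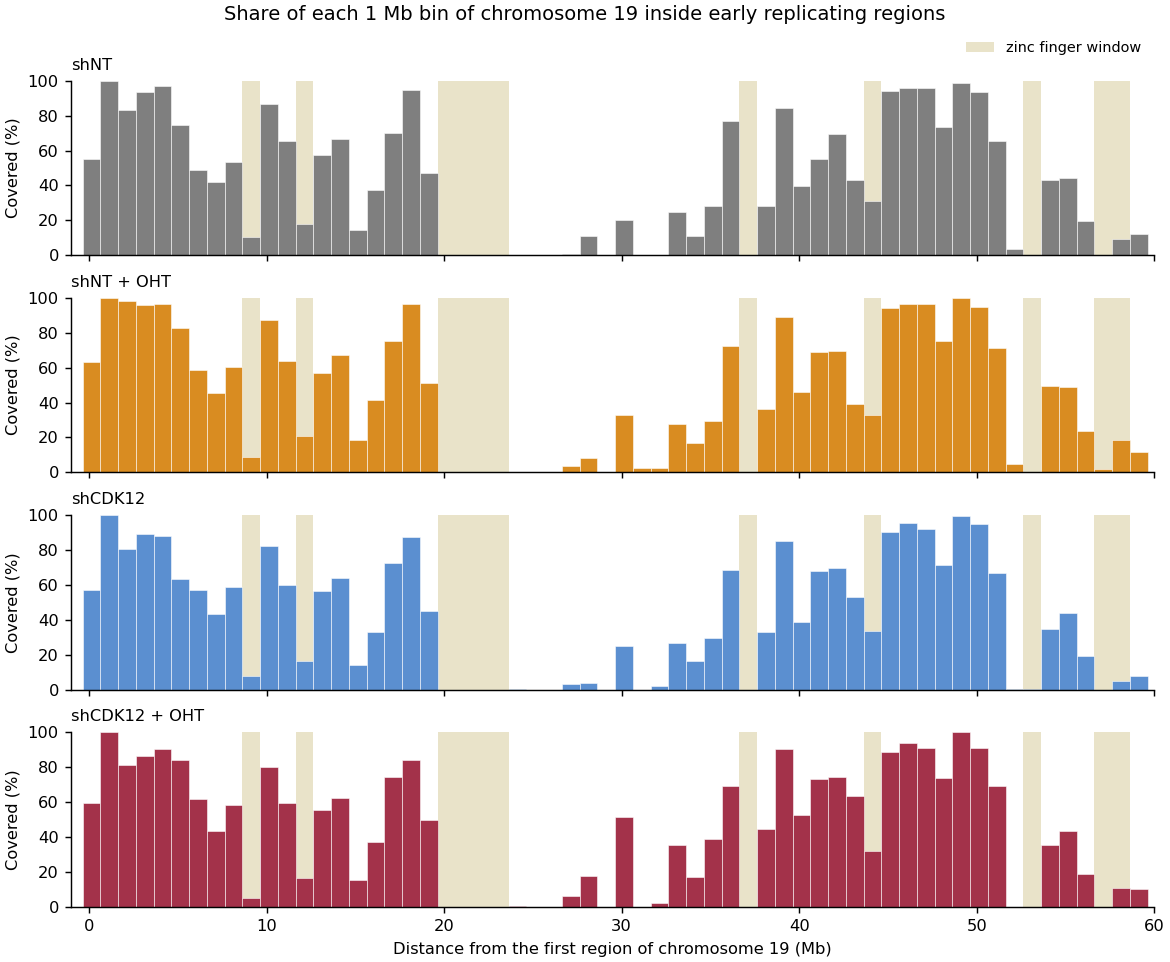
Percent of each 1 Mb bin of chromosome 19 inside ERRs (y axis, 0 to 100%) against the distance from the first region in Mb (x axis), with 1 panel per merged list and the zinc finger windows shaded. All 4 lists show blocks of high cover near the start and around 45 to 50 Mb, none in the long shaded window and at most 6.16% in each of the 4 bins that follow it.

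The 5 widest merged regions, obtained by joining the regions of the 4 lists wherever they overlapped, kept nearly the same limits in all conditions. The widest spanned chr19:48667601-50522000 (1854.4 kb), and 97.8%, 99.1%, 99.0% and 98.6% of it were covered. It was a single region in shNT + OHT and was divided into 2, 3 and 2 in the others. At the start of the chromosome, chr19:364801-2193200 was a single region in all lists but shNT, where it was divided into 2. Its reads per kb stood at 1.93, 2.01, 1.61 and 1.5 times the mean of autosomal regions of the same list, highest in both shNT lists. The region at chr19:45054001-46856000 was whole in shNT and was divided into 2, 3 and 6 regions in the lists that follow, with 0, 4.8, 31.6 and 58 kb of gaps inside. A similar division was seen at chr19:17250401-18575600, with 1 region in each shNT list, 3 in shCDK12 and 4 in shCDK12 + OHT. At chr19:50635601-51653600 the lists held 2, 2, 1 and 4 regions. In 3 of the 5 there were thus more regions with silencing in both backgrounds, although few bases were lost to the gaps.

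Long stretches without ERRs were shared by all lists. Within the span, 17 stretches of at least 500 kb were free of regions in all 4 lists, and they added up to 20.8 Mb. The 5 longest were chr19:19710401-24183200 (4473 kb), chr19:24186401-27731600 (3545 kb, the stretch that holds the centromere), chr19:36942801-38547200 (1604 kb), chr19:31647201-32872800 (1226 kb) and chr19:56668401-57820000 (1152 kb). A stretch without a region is one in which the authors' caller reported none, which does not measure when it was replicated. How well reads can be placed there was not analysed here.

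Most of the zinc finger windows were among these stretches. Since the annotation at hand was of another build, 7 windows of whole megabases of hg19 were placed from general knowledge of the large clusters, at 9 to 10, 12 to 13, 20 to 24, 37 to 38, 44 to 45, 53 to 54 and 57 to 59 Mb. The 7 RefSeq runs of zinc finger genes follow in the same order along the chromosome, but the match between windows and runs rests on that order alone. ERRs covered 6.24%, 7.52%, 5.70% and 5.85% of the 11 Mb of windows. The rest of the chromosome was covered by 50.7%, 53.9%, 50% and 53.1%, or by 54.7%, 58.2%, 54.1% and 57.3% without the stretch that holds the centromere. In all 4 lists at once, 10.1 of the 11 Mb were free of regions, and 7 of the 17 long free stretches touched a window, with 8.49 Mb inside windows.

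**Figure D2:**
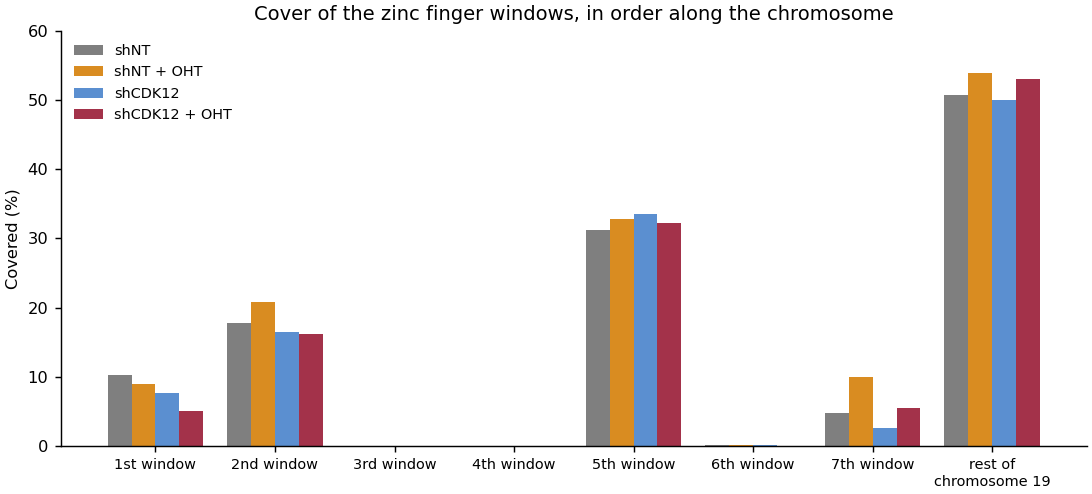
Percent of each zinc finger window covered by ERRs (bars, y axis from 0) in the 4 merged lists, for the 7 windows in order along chromosome 19 (1st 9 to 10 Mb, 7th 57 to 59 Mb) and for the rest of the chromosome. The 3rd and 4th windows were at 0 in every list, the 5th was at 31.2% to 33.5%, and the rest of the chromosome at 50% to 53.9%.

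The windows from 20 to 24 Mb and from 37 to 38 Mb held no region in any list. The corresponding RefSeq runs go from ZNF101 to ZNF254 (37 zinc finger genes, among them ZNF85, ZNF43 and ZNF91) and from ZNF565 to ZNF573 (29 genes, among them ZNF382, ZNF567 and ZNF420). ZNF91 is known to silence SVA retroelements. In the window from 53 to 54 Mb (run from ZNF577 to ZNF331, 40 genes) the lists held only chr19:53181201-53182000, which is 0.8 kb wide. It had 89, 196 and 64 reads in the first 3 lists and was absent from shCDK12 + OHT.

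The other windows held some cover, most of it towards their start or end. From 9 to 10 Mb (run from ZNF317 to ZNF846, 12 genes), cover was 10.2%, 8.96%, 7.68% and 5.00%. A region near the end of the window was present in every list, at 51.6, 70, 44.4 and 50 kb, while chr19:9147601-9198000 (50.4 kb in shNT and 32.4 kb in shCDK12) had no counterpart in either list with OHT. From 12 to 13 Mb (run from ZNF627 to ZNF791, 24 genes) cover was 17.7%, 20.8%, 16.4% and 16.2%, nearly all from the start of 1 wide region that runs on past 13 Mb and measured 558, 571.2, 392.4 and 399.6 kb. It was narrower in both silenced lists, but there further cover was called past its end. The merged region at this place (chr19:12813601-13387600) was covered over 558, 571.2, 516.8 and 544 kb. The covered length thus differed less between the lists than the width of that region. The window from 44 to 45 Mb (run from ZNF283 to ZNF180, 20 genes) had the highest and steadiest cover, at 31.2%, 32.8%, 33.5% and 32.2%. Its regions all ended before 44387201, and the remainder of the window, from there to 45 Mb, was free in all lists. In the window from 57 to 59 Mb (run from ZNF264 to ZNF446, 43 genes) cover was 4.68%, 10%, 2.52% and 5.50%. This was 93.6, 201, 50.4 and 110 kb. In shNT + OHT, 17.2 kb of it lay at chr19:57820001-57837200, where the other lists held no region. All other cover of the window lay in the last 302.8 kb of the span (chr19:58816401-59119200). That end runs on past the window, and 212.8, 302.8, 127.6 and 210.8 kb of it were covered in all. Cover of that end was higher with OHT and lower with silencing in both backgrounds.

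Merging the 4 lists gave 122 regions over 28.5 Mb, with a median width of 79.4 kb. Of these, 77 (63.1%) held a region of all 4 lists, against 60% on the other autosomes, and they made up 94.1% of the merged length against 83.4%. Counted by bases, 22.6 Mb (79.4%) lay in all 4 lists. Merged regions found in a single list numbered 1, 7, 6 and 4. These were 0.820%, 5.74%, 4.92% and 3.28% of merged regions, against 0.482%, 4.61%, 2.24% and 9.47% on the other autosomes. Only the share of shCDK12 + OHT was below that of the other autosomes. For each of the 4 comparisons, the base-pair Jaccard index of chromosome 19 (shared bases divided by the bases of the union) was the highest of the 22 autosomes, at 0.909 for OHT in shNT cells, 0.894 for silencing without OHT, 0.877 for silencing with OHT and 0.877 for OHT in shCDK12 cells. The medians of the other autosomes, by comparison, were 0.833, 0.767, 0.723 and 0.731. The next highest values were 0.891 (chromosome 22), 0.858 (chromosome 22), 0.841 (chromosome 17) and 0.867 (chromosome 17). Both of these chromosomes also had high cover, at 54.9% and 43.2% in shNT for chromosomes 22 and 17. How far the index goes with cover and width was not tested.

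MycER activation in shNT cells was examined with the lists shNT and shNT + OHT. Cover of chromosome 19 was higher by 1.68 Mb with OHT, a ratio of 1.07, against 1.11 for the other autosomes together, where single ratios ran from 1.07 (chromosome 11) to 1.28 (chromosome 13). It was the lowest of the 22. Its share of autosomal reads in regions was at a ratio of 1.02, rank 7 from the highest, and its reads per kb at 2.76 against 2.62 elsewhere. Of 109 shNT regions, 105 overlapped a region of shNT + OHT (96.3%, Wilson interval 90.9 to 98.6). The 4 absent ones were 3.67%, against 1.60% over all regions of the list outside chromosome M. In the other direction 97 of 121 were present (80.2%, 72.2 to 86.3) and 24 were absent (19.8%, against 21.2% over all regions). The absent regions of shNT + OHT were narrow, with a median of 24.6 kb against 122 kb for those present. The widest was chr19:41392801-41466800 (74 kb, 2296 reads). The widest of shNT without a counterpart was chr19:9147601-9198000, in the window from 9 to 10 Mb. At least 2 regions of shNT + OHT were overlapped by 5 of 109 shNT regions (4.59%, background 3.61%). In reverse, 13 of 121 overlapped several (10.7%, background 5.52%).

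Merged regions of at least 30 kb that held regions of both lists numbered 78 in this comparison. With OHT 57 of them were wider and 17 narrower (21.8% narrower, against 46.0% of 2912 merged regions of the other autosomes). Their median log2 width ratio was 0.06, against 0.01 elsewhere. The log2 ratio of their share of autosomal reads had a median of 0.04 against -0.05 elsewhere, or -0.01 against -0.08 with width divided out. A share higher by at least 1.5-fold was seen in 1 (background 3.78%) and one lower by at least 1.5-fold in 4 (background 6.79%). The 3 highest were chr19:54895201-54998800 (log2 ratio 0.85, counting SE 0.05, covered over 47.2 kb in shNT and 99.6 kb with OHT), chr19:58816401-59119200 (0.53, SE 0.02) and chr19:41829601-41968800 (0.50, SE 0.04). The 3 lowest were neighbours, at chr19:43748001-43791200 (-1.07, SE 0.08), chr19:43548801-43744800 (-0.75, SE 0.03) and chr19:43315201-43457600 (-0.71, SE 0.03). In 1 Mb bins the largest rise was from 2 to 3 Mb, where cover went from 83.0% to 98.2%, and the largest fall from 36 to 37 Mb, from 76.9% to 72.5%.

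Silencing of CDK12 without OHT was examined with shNT and shCDK12. Cover was lower by 0.360 Mb with silencing (ratio 0.986, rank 18 from the highest), while the other autosomes together had a ratio of 1.03, from 0.937 on chromosome 21 to 1.12 on chromosome 15. The ratio of read shares was 0.953, also rank 18, and that of reads per kb 0.741 against 0.749 elsewhere. Of the shNT regions, 104 were present in shCDK12 (95.4%, 89.7 to 98) and 5 were absent (4.59%, background 6.07%). Of the shCDK12 regions, 123 of 144 were present in shNT (85.4%, 78.7 to 90.3) and 21 were absent (14.6%, background 20.2%). Of 109 shNT regions, 19 overlapped at least 2 regions of shCDK12 (17.4%, background 10.5%), and 6 of 144 overlapped several in reverse (4.17%, background 3.62%). Wider regions have more room for such overlaps, and widths were not matched. The widest absent from shCDK12 was chr19:4963601-5096000 (132.4 kb, 1636 reads), and the widest absent from shNT was chr19:41393601-41467600 (74 kb, 837 reads), at the spot that was also gained with OHT.

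Over 77 merged regions, 25 were wider and 52 narrower with silencing (67.5% narrower, against 61.5% on the other autosomes). The median log2 width ratio was -0.05, as on the other autosomes (-0.05). The median log2 ratio of read share was -0.01 against 0.04, or 0.06 against 0.10 with width divided out. Shares higher by at least 1.5-fold were seen in 2 (background 12.8%) and lower ones in 2 (background 14.0%), so that most regions kept their share within that fold. The lowest were chr19:58816401-59119200 (-0.90, SE 0.04), chr19:36577601-36700800 (-0.59, SE 0.04) and chr19:36721601-36765600 (-0.56, SE 0.10). The highest were the dense spot beside the centromere, chr19:27731601-27770800 (0.72, SE 0.02), chr19:41829601-41968800 (0.61, SE 0.05) and chr19:8081201-8340400 (0.56, SE 0.03). Bin cover rose most from 41 to 42 Mb, from 55.1% to 68.0%, and fell most from 5 to 6 Mb, from 74.9% to 63.4%.

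Silencing of CDK12 with active MycER, examined with shNT + OHT and shCDK12 + OHT, gave chromosome 19 the lowest ratios of the 22 autosomes in cover and in read share. Cover was lower by 0.575 Mb (ratio 0.978), while every other autosome had a ratio of at least 1.01 (chromosome 20), up to 1.29 on chromosome 18, and 1.13 together. The share of autosomal reads went from 6.70% to 5.46%, a ratio of 0.814. The other autosomes ran from 0.887 (chromosome 20) to 1.33 (chromosome 18). With merged regions that hold all 4 lists only, the ratio of chromosome 19 was 0.838. Reads per kb changed by a factor of 0.476, against 0.513 elsewhere, a level that also depends on depth. Bases were both lost and gained, with 2.02 Mb covered only in shNT + OHT and 1.44 Mb only in shCDK12 + OHT.

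Of the shNT + OHT regions, 108 of 121 were present in shCDK12 + OHT (89.3%, 82.5 to 93.6) and 13 were absent (10.7%, background 11.5%). Of the shCDK12 + OHT regions, 129 of 137 were present in shNT + OHT (94.2%, 88.9 to 97.0). The 8 absent ones were 5.84%, against a background of 14.8%. In this direction the share of absent regions was lower on chromosome 19 than over the list as a whole. At least 2 and at most 4 regions of shCDK12 + OHT were overlapped by 23 regions of shNT + OHT (19%, background 6.32%), and 13 overlapped several in reverse (9.49%, background 7.48%). The widest absent region of shNT + OHT was chr19:54626801-54722800 (96 kb, 4403 reads), and that of shCDK12 + OHT was chr19:43001201-43078800 (77.6 kb, 1623 reads).

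Over 87 merged regions, 35 were wider and 51 narrower (58.6% narrower, against 38.8% of 3206 on the other autosomes). The median log2 width ratio was -0.04 against 0.06. The median log2 ratio of read share was -0.10 against 0.24, but a share follows the width called in each list, and with width divided out the medians were 0.01 against 0.15. Shares higher by at least 1.5-fold were seen in 13 merged regions (background 29.3%), and lower ones in 6 (background 7.80%). The 3 highest lay between 28 and 31 Mb, where cover was low. At chr19:30804801-30898000 (log2 ratio 2.17, SE 0.06) both lists without OHT held no region, shNT + OHT held 847 reads over 21.6 kb and shCDK12 + OHT 2185 reads over 93.2 kb. At chr19:28892801-28990400 (1.75, SE 0.05) they were 655, 1226, 367 and 2349, over 55.2, 31.2, 34.8 and 97.6 kb. At chr19:30540401-30620000 (1.5, SE 0.06) they were 0, 1090, 0 and 1765, again with no region in either list without OHT. A region was thus called at 2 of these 3 places only with OHT, and it was wider with silencing.

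The lowest share ratios were at chr19:54626801-54795200 (-1.38, SE 0.04), where 150.8, 162.8, 94 and 53.2 kb were covered, then at chr19:36577601-36700800 (-0.97, SE 0.03) and at the chromosome end, chr19:58816401-59119200 (-0.68, SE 0.02). The last 2 were also the lowest when CDK12 was silenced without OHT, in lists that share none with this comparison. Among bins, cover rose most from 43 to 44 Mb. It stood at 43.3%, 39.1%, 52.8% and 63.4%, and was higher in both silenced lists. Within that bin chr19:43001201-43078800 and chr19:43230401-43295200 held no region in either shNT list, 383 and 373 reads in shCDK12, and 1623 and 1461 in shCDK12 + OHT. Cover fell most from 2 to 3 Mb, from 98.2% to 81.4%, beside 83.0% in shNT and 80.7% in shCDK12.

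**Figure D3:**
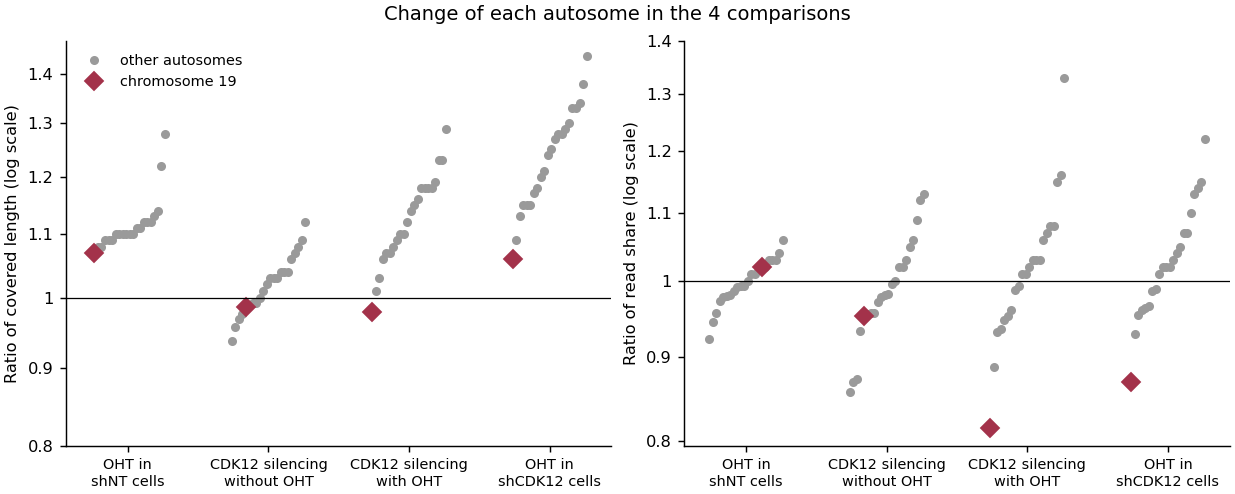
Ratio of covered length (left) and of the share of autosomal reads in regions (right, both on a log axis) of the second list over the first in the 4 comparisons, with a point per autosome in ascending order and chromosome 19 as a diamond. Chromosome 19 was the lowest in covered length in 3 comparisons and in read share in both that involve shCDK12 + OHT (0.814 and 0.869).

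MycER activation in silenced cells was examined with shCDK12 and shCDK12 + OHT, the latter list being shared with the comparison above. Cover was higher by 1.47 Mb (ratio 1.06), again the lowest of the 22 autosomes, where the others together were at 1.22 and ran from 1.09 (chromosome 17) to 1.44 (chromosome 13). The ratio of read shares was 0.869, also the lowest, with 0.929 (chromosome 17) next and 1.22 (chromosome 13) highest, while reads per kb changed by a factor of 1.77 against 1.79 elsewhere. Of 144 shCDK12 regions, 131 were present with OHT (91.0%, 85.2 to 94.6) and 13 were absent (9.03%, background 6.46%). Of 137 shCDK12 + OHT regions, 121 were present in shCDK12 (88.3%, 81.9 to 92.7) and 16 were absent (11.7%, background 15.5%). The widest absent ones were chr19:44351601-44386400 (34.8 kb, 496 reads) in shCDK12 and chr19:30804801-30898000 (93.2 kb, 2185 reads) in shCDK12 + OHT.

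In this comparison 54 of 84 merged regions were wider and 30 narrower (35.7% narrower, against 23.5% of 3182 elsewhere). The median log2 width ratio was 0.04 against 0.15. The median log2 ratio of read share was -0.10 against 0.09, or -0.17 against -0.10 with width divided out. Higher shares by at least 1.5-fold numbered 7 (background 16.7%) and lower ones 2 (background 2.66%). The highest were chr19:28892801-28990400 (1.57, SE 0.08), chr19:41998801-42078400 (1.09, SE 0.08) and chr19:43001201-43078800 (0.97, SE 0.08). The lowest were chr19:54626801-54795200 (-0.85, SE 0.06), chr19:36577601-36700800 (-0.67, SE 0.04) and chr19:34718001-34768800 (-0.56, SE 0.05). Bin cover rose most from 30 to 31 Mb, from 24.9% to 51.7%, and fell most from 50 to 51 Mb, from 94.6% to 90.8%.

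Along the chromosome the changes had a regional order. In segments of 10 Mb, silencing with OHT went with less cover from 0 to 10 Mb (-408 kb), from 10 to 20 Mb (-446 kb) and from 50 to 60 Mb (-459 kb), and with more from 20 to 30 Mb (117 kb), from 30 to 40 Mb (385 kb) and from 40 to 50 Mb (237 kb). Silencing without OHT, in lists that share none with these, gave -117, -274, -57.2, 135, 147 and -194 kb in order along the chromosome. The signs were alike in all segments but the one from 20 to 30 Mb, which had the least cover. Over the 52 bins with any cover, the differences in cover with silencing in both backgrounds had a Spearman correlation of 0.62 (0.59 over 1784 bins of the other autosomes), given as a description, since neighbouring bins share regions. OHT gave 536, 205, -0.400, 375, 231 and 335 kb in shNT cells and 245, 33.2, 174, 624, 321 and 69.6 kb in shCDK12 cells, with a Spearman correlation over bins of 0.38 (0.41 elsewhere).

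**Figure D4:**
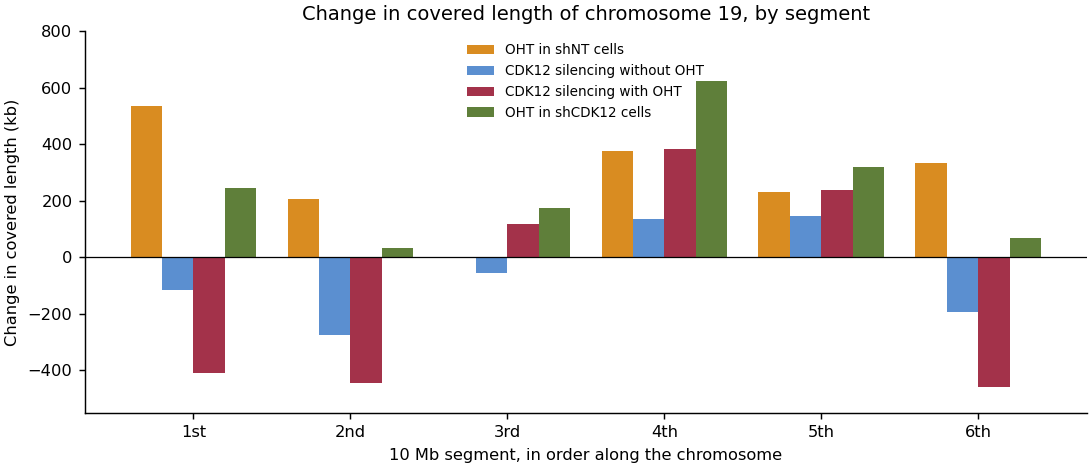
Change in covered length (kb, second list minus first) in each 10 Mb segment of chromosome 19 for the 4 comparisons, as bars around 0. With silencing, cover was lower in the 1st, 2nd and 6th segments and higher in the 4th and 5th in both backgrounds, and with OHT the largest rises were 536 kb in the 1st segment in shNT cells and 624 kb in the 4th in shCDK12 cells.

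Since chromosome 19 starts from a high cover, its bins were set beside bins of other autosomes with a like mean cover in the 4 lists. For silencing with OHT, the 12 bins of chromosome 19 covered by 80 to 100% had a median change of -5.58 percentage points, with 1 bin higher and 9 lower, against 0.240 over 97 bins of other autosomes (51 higher, 43 lower). Bins covered by 50 to 80% changed by -1.80 against 4.40, those by 20 to 50% by -0.600 against 3.8, and those under 20% by -1.78 against 0.480. The difference thus had the same sign in each class of cover. For OHT in shCDK12 cells the medians were also below those elsewhere in all 4 classes, at -1.18 against 2.28 in the class of 80 to 100%, 2.28 against 7.16 in that of 50 to 80%, 4.80 against 7.36 in that of 20 to 50% and 0 against 1.44 under 20%. These 2 comparisons share the list shCDK12 + OHT. For silencing without OHT the medians of the classes were mixed, at -3.14 against -0.720 in the class of 80 to 100%, 0.200 against 1.52, 1.56 against 0.560 and, under 20%, -0.100 against 0. The mean changes were below those elsewhere in all 4 classes. In the same order they were -2.76 against 0.377, 0.120 against 2.63, 0.754 against 1.28 and -1.01 against -0.153. For OHT in shNT cells, in contrast, the medians were above those elsewhere in all 4 classes, with 1.06 against 0.920 in the highest class and 2.04 against 0.0800 in the lowest. The mean changes did not all follow. They were 2.35 against 2.41 in the class of 80 to 100% and 4.21 against 5.16 in that of 50 to 80%. In the lower classes they were 4.36 against 4.15 (20 to 50%) and 2.04 against 1.09 (under 20%). Across the 22 autosomes, the ratio of covered length had a Spearman correlation of -0.71 (OHT in shNT cells), 0.23 (silencing without OHT), -0.43 (silencing with OHT) and -0.92 (OHT in shCDK12 cells) with the cover of the starting list, which is also the denominator of the ratio. How much of the low ratios of chromosome 19 goes with its high starting cover was not tested.

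**Figure D5:**
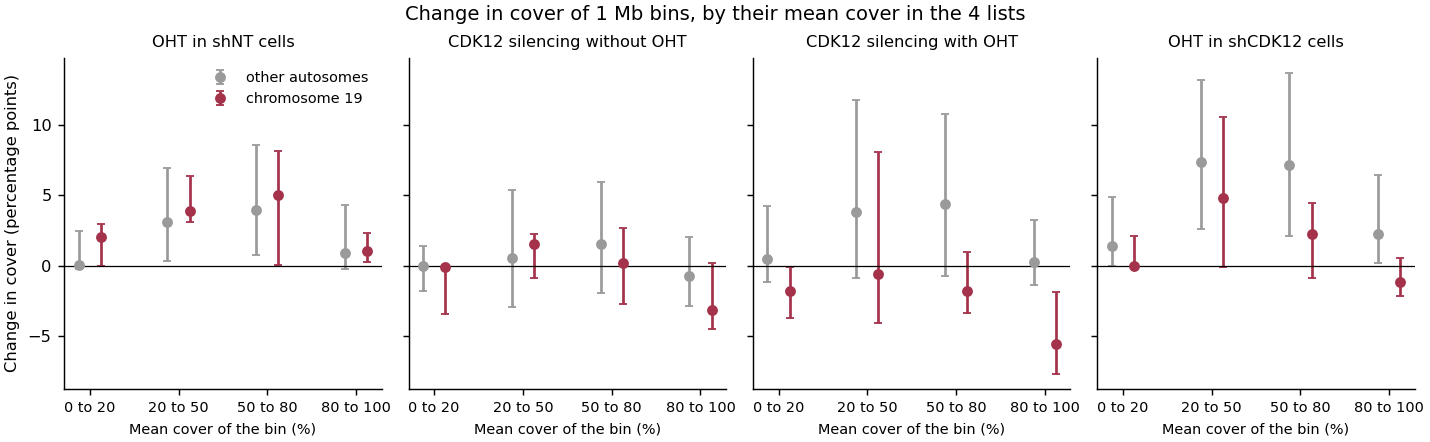
Median change in cover of 1 Mb bins (percentage points, second list minus first, bars from the lower to the upper quartile) in 4 classes of mean cover, for chromosome 19 (12 to 14 bins per class) and the other autosomes (97 to 1009 bins), with a panel per comparison. In both comparisons with the list shCDK12 + OHT the medians of chromosome 19 lie below those of the other autosomes in every class.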

How the data were processed

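EdU-labelled DNA of 12 samples (4 conditions, 3 each) was sequenced by the authors. The submitters' processing notes name BWA 0.6.2, SAMtools, SICER and the builds hg19 and mm10, without their roles. The lists are human and read as hg19, as 10 regions of chromosome 19 end past its hg38 length (58617616). The deposited lists give, per merged region, a whole-number read count, not scaled to library size, and the authors' score. All limits lie on a 400 bp grid. Total library sizes were not used, so depth is known only as reads inside regions. No column of other samples was present.

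Overlap meant at least 1 bp. Gaps, merged regions, 1 Mb bins and read shares were computed with Python 3.11.15, numpy 2.4.6 and pandas 2.3.3, Wilson 95% intervals with scipy 1.17.1, and figures with matplotlib 3.10.9. The interval functions were tested on simulated data. Counting SEs of log2 ratios come from the reads of the region alone. No test between conditions was possible. Positions are counted from 1.

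The regions named were the 5 widest merged regions, the widest and (from 10 kb) densest region of each list, the widest region absent from either list of a comparison, the 3 highest and 3 lowest read share ratios among merged regions of at least 30 kb, the 5 longest free stretches and the zinc finger windows. Other positions in the text were chosen after their values were seen. The chromosome, windows and rules were chosen with earlier results of these data known. Alternatives covered joining across 10 kb, a minimum score, width limits, reciprocal overlap of 50%, narrowed windows, chromosome X, the full span and dense regions left out. Both of the last were added after seeing the data, the full span because the longest free stretch of chromosome 19 was not the one that holds the centromere. No sequence is printed, since the hg19 genome was not used here.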

Additional observations from a re-analysis of the deposited data

Results flagged for a closer look

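For 4 measures of chromosome 19, the difference between the lists with and without OHT had opposite signs in shNT and shCDK12 cells. None of these differences was tested, because the replicates of a condition were pooled. The number of regions was higher by 12 with OHT in shNT cells and changed by -7 in shCDK12 cells. Without silencing the median width changed by -26.4 kb, and with silencing by 7.80 kb. When the common minimum score was applied, the number was instead higher with OHT in both backgrounds (109 and 110 in shNT cells, 117 and 135 in shCDK12 cells), and the median width lower in both (123 and 104 kb, 111 and 89.2 kb). The percent of autosomal reads inside regions of chromosome 19 changed by 0.112 without silencing and by -0.821 with it. The reads per kb over those of the other autosomes changed by 0.0646 and by -0.0119. With the common minimum score, the last ratio was 1.18 without and 1.24 with OHT in unsilenced cells, and 1.14 and 1.15 with silencing. With regions of at least 30 kb only, it was 1.18 and 1.24, and 1.15 and 1.17 with silencing. Under these settings it was thus higher with OHT in both backgrounds. The opposite signs stayed with regions above 500 reads per kb left out (1.2 and 1.26, then 1.18 and 1.16). They also stayed against the median of the other autosomes (1.24 and 1.3, then 1.22 and 1.21).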

How the results depend on the processing

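Of 113 values under an alternative, over 49 results, 96 stayed within their limits, 17 moved and 0 reversed. The limits were the Wilson interval for shares present and 1.5-fold for all other values. The limit of 1.5-fold is wide beside ratios that lie close to 1, so that these stayed within it says little about them. Only ratios could count as reversed, by a change of direction. A changed sign of a difference between lists, as in the paragraph above, was not counted. With windows narrowed by 100 kb, their cover was 4.83% in shNT + OHT and 3.52% in shCDK12 + OHT. With a reciprocal overlap of 50%, the shares present were 82.6% for shNT in shNT + OHT, 86.2% for shNT in shCDK12, 65.3% for shCDK12 in shNT, 66.1% for shNT + OHT in shCDK12 + OHT, 58.4% for shCDK12 + OHT in shNT + OHT, 66.0% for shCDK12 in shCDK12 + OHT and 69.3% for shCDK12 + OHT in shCDK12. With the common minimum score they were 86.4% for shNT + OHT in shNT, 88.1% for shNT in shCDK12, 95.7% for shCDK12 in shNT, 95.7% for shCDK12 in shCDK12 + OHT and 77.8% for shCDK12 + OHT in shCDK12. With chromosome X added, chromosome 19 was rank 2 from the lowest for silencing with OHT in covered length. With stretches free in shNT alone, the 3rd and 4th longest measured 2.81 and 2.64 Mb. The causes were not tested.

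The ratio of covered length for silencing with OHT stayed between 0.978 and 0.984, and that for silencing without OHT between 0.957 and 0.990. No paired analysis was possible because the lists pool the replicates, and for the same reason no replicate could be left out. Reads inside regions do not give library depth, so absent regions and levels between lists cannot be told apart from differences in depth or calling.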
